A study of Rattus norvegicus with 256 samples.

Results

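Cytochrome P450 genes of families 1 to 4 were followed across 31 organs of male and female rats. Members were the probesets of the RAE230_2 array whose annotation gave a single gene symbol beginning with Cyp1, Cyp2, Cyp3 or Cyp4 and a letter. The rule found 46 probesets of 42 genes among the 31042 on the array, and it used no measured value. Cyp2d4, Cyp2j3, Cyp4a8 and Cyp4v3 had a pair of probesets each, and 4 further probesets shared by several such genes were left aside. Each array held the RNA of one organ of one animal, and the arrays fell into 57 groups of an organ and a sex. All animals were untreated Han Wistar-derived rats (AlpkHsdBrlHan:WIST), 5 males and 5 females, housed in small groups and killed by halothane inhalation. Their age was not given in the sources used here. Normal tissue was taken in 26 somatic organs of both sexes and in the testes, epididymis, prostate, ovary and uterus, and groups held 2 to 5 arrays. Values are log2 GCRMA signals, so a difference of 1 is a 2-fold difference. A probeset was called expressed in an organ when either sex had a mean above the study's threshold, a linear signal of 100.4 (6.7 on the log2 scale). Levels of different probesets were not compared with each other, since probes differ in how strongly they bind.

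Cytochromes P450 are haem enzymes of the endoplasmic reticulum that insert an oxygen atom into their substrate with electrons passed on by the reductase Por. Families 1 to 3 are known for the oxidation of drugs, pollutants and steroids, and family 4 for the omega-hydroxylation of fatty acids and eicosanoids. In the rat liver several family 2 and 3 genes are classical examples of sexually dimorphic expression, set by the pattern in which growth hormone is secreted.

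Some arrays stood apart. Xist and Eif2s3y went against the labelled sex on 4 arrays, namely aorta male 3, heart male 5, bone marrow male 5 and bone marrow female 2. They were kept under their labels, and without them, an alternative chosen after seeing the data, 43 members were expressed, 25 were highest in the liver and 18 differed between the sexes in some tissue. On 32 arrays the greater part of a list of cell type markers, or as many of its genes as not, lay more than 3 log2 units above the median of the organ. Several of the 32 rested on 1 gene. Soleus muscle male 3 passed by the only measured gene of the lung club cell list, and colon male 2 by 1 of 2 fat cell genes. Among the 32, liver female 5 carried the lung genes Sftpc, Sftpb, Sftpa1 and Scgb1a1, and adipose male 5 and adipose female 2 carried hepatocyte genes. Without the 32 arrays, 43 members were still expressed in at least 1 organ, 25 were still highest in the liver and 17 in place of 18 differed between the sexes. The hepatocyte, renal, alveolar and adrenal cortical lists were highest in their own organs.

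Of the 46 probesets, 43 were expressed in at least 1 organ (41 genes), against 64.7% of all probesets. The liver expressed 32 of them (69.57%, against 30.7% of all probesets there), the kidney 15 (32.61%, against 33.3%), and the duodenum, jejunum and ileum 13 each (28.26%, against 33.7%, 32.6% and 32.3%). The kidney and small intestine thus lay at or below the share of all probesets. The brain expressed none and the pituitary and soleus muscle 1 each. In whole pieces of an organ, fewer cells of a type and less RNA per cell cannot be told apart. A median of 2 organs expressed a member, against 13 for all expressed probesets, and 18 members (41.9%) were expressed in 1 organ, against 15% of all. Between its highest and lowest organ an expressed member ranged over a median of 8.91 log2 units, against 4.82 for all. The 3 probesets that passed in no organ were those of Cyp2g1, highest in the testes at 4.45, and the second probesets of Cyp2d4 and Cyp4v3, whose partner probesets were expressed.

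**Figure D1:**
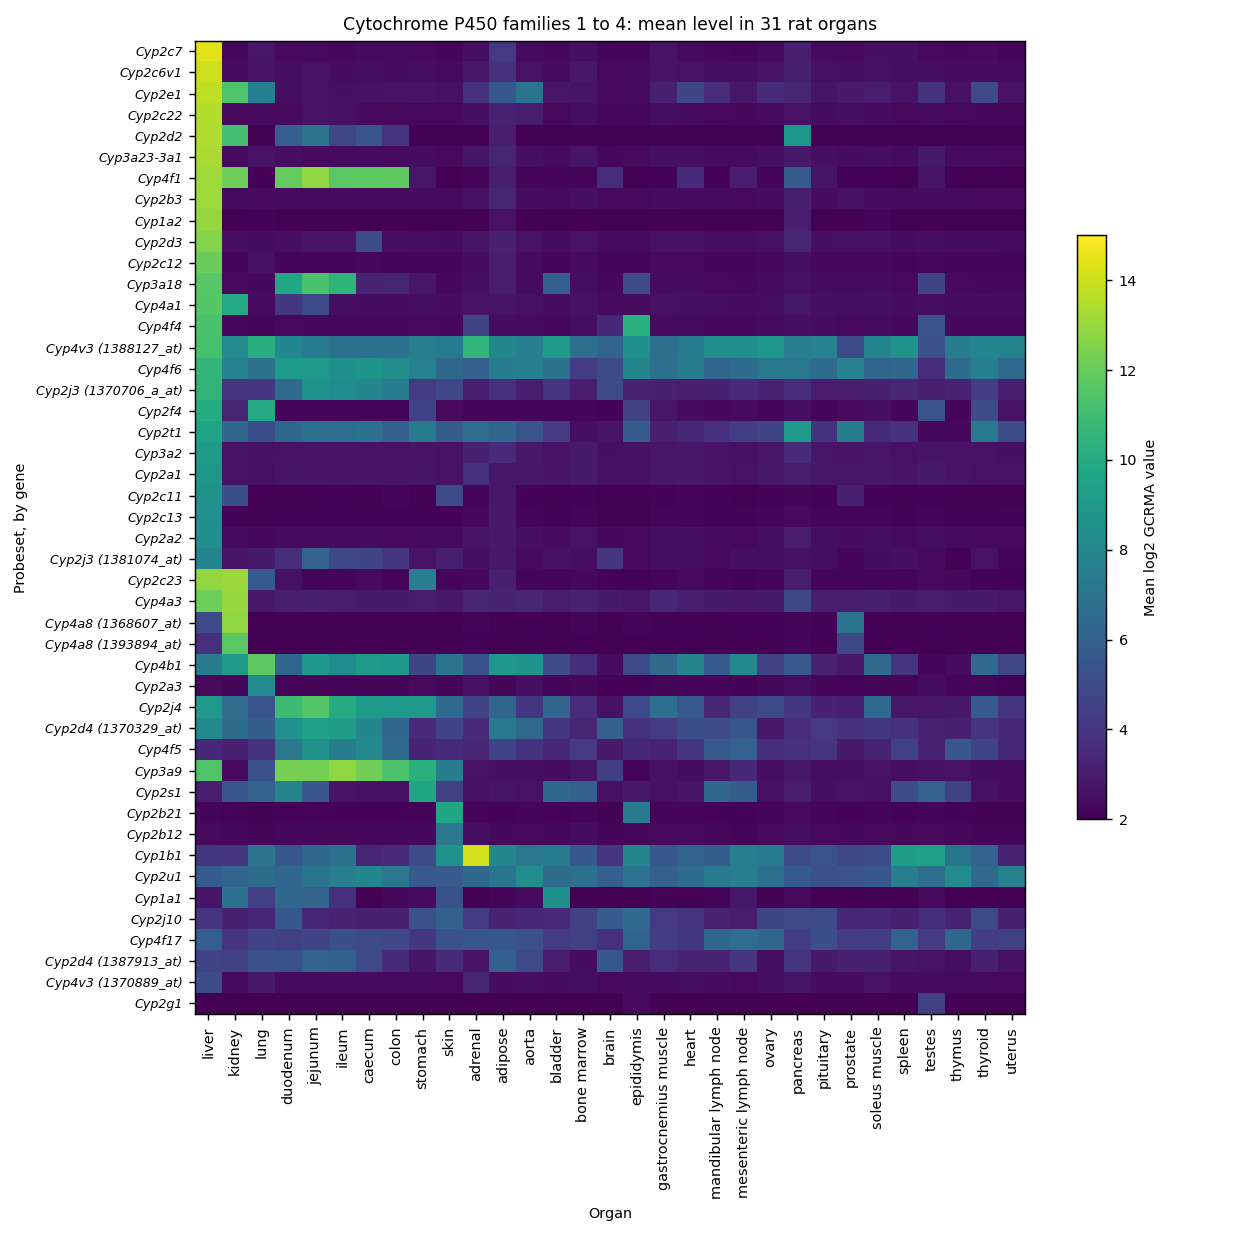
Mean log2 GCRMA value of each of the 46 probesets (rows, named by gene, grouped by the organ of the highest mean, with those expressed in no organ last) in 31 organs (columns), the mean of the sex means. The first 25 rows peak in the liver, and the rows below them peak in the kidney, lung, gut, skin, adrenal and other organs.

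The liver held the highest mean of 25 of the 43 expressed members, against 4.32% of all expressed probesets. An organ's mean was the mean of its sex means. Cyp3a18 was highest in the liver through its males, at 13.39 against 9.89 in females, while its jejunum mean over both sexes was 11.28. In 12 of the 25 the lowest liver array was above the highest array of the next organ, near the 44.9% of all probesets highest in the liver. In the liver alone 13 members were expressed, against 0.841% of all expressed probesets. Of these, Cyp2a2, Cyp2c13 and Cyp3a2 passed in males only, with female liver means of 4.18, 3.57 and 4.36. Cyp2c11 and Cyp4a8, expressed in other organs too, also passed in male livers only. Among the 13, Cyp2c7, a retinoic acid and steroid hydroxylase, ranged from 14.19 to 14.62 over the 9 liver arrays. Cyp2c6v1 ranged there from 13.69 to 14.29. Cyp1a2, the oxidase of caffeine and aromatic amines, ranged from 12.12 to 13.58, while its highest mean elsewhere was 3.11, in the pancreas. Cyp2e1, the ethanol-oxidising P450, was also liver-led, from 12.72 to 14.25, but the kidney followed at 10.18 to 12.60 without overlap. Cyp2d2, one of the debrisoquine-type enzymes, had liver values of 13.30 to 13.61 and was expressed in 5 organs. Its pancreas arrays, between 8.51 and 9.38, stood far above the threshold. Widely expressed members were few. In 10 or more organs 6 were expressed, against 55.1% of all expressed probesets, Cyp4v3 in 28, Cyp4f6 in 21, Cyp2u1 in 18, Cyp4b1 in 15, Cyp1b1 in 13 and Cyp2j4 in 10.

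Outside the liver 18 members had their highest mean, and 7 of these were expressed in the liver as well. In limma, with one spread estimated over all 57 groups and p-values adjusted over all 31042 probesets by Benjamini-Hochberg, 4 members were higher in the kidney than in the liver and 28 were lower, against 8.51% and 5.96% of all probesets. For the lung minus liver the counts were 3 higher and 29 lower (12.0% and 8.40% of all). In the skin 3 were higher and 30 lower than in the liver (11.2% and 8.34%), and in the adrenal 1 and 30 (9.00% and 8.55%). A call needed more than a 2-fold change, a mean past the expression threshold in one of the organs and an adjusted p below 0.05.

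The kidney led 4 probesets, of Cyp2c23, Cyp4a3 and Cyp4a8. Cyp2c23, an epoxygenase of arachidonic acid, was at 12.88, 12.97, 12.93, 13.35 and 12.98 in male kidneys and at 13.04, 13.18, 12.91, 13.19 and 13.09 in female kidneys. Its liver values, 12.71 to 13.04, overlapped these, and the stomach was the only other organ to express it. Cyp4a8, a fatty acid omega-hydroxylase, was measured by both of its probesets in the kidney at least 7.91 log2 units above the liver (7.96 and 7.91, adjusted p from limma of 2.4e-121 and 7.5e-115). Neither probeset had a kidney array that reached down to the prostate, the next organ. In the prostate the 5 arrays of the first probeset were uneven, at 5.38, 5.90, 5.62, 10.22 and 7.94. Cyp4a3, of the same subfamily, was at 11.92 to 13.66 in the kidney and 11.52 to 12.74 in the liver, so the organs overlapped.

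The lung led Cyp4b1, which activates furans and other pneumotoxic compounds, and Cyp2a3. Male lungs had Cyp4b1 at 11.67, 11.36, 11.76, 12.01 and 11.67, and female lungs at 11.91, 11.75, 12.09, 11.58 and 12.00. Lung exceeded liver by 4.33 (standard error 0.30, adjusted p = 1.3e-32 from limma). Cyp2a3 was expressed in the lung alone, at 9.03, 8.13, 8.63, 9.54 and 6.46 in males and 7.87, 8.39, 7.54, 9.05 and 8.28 in females. One male lung lay below the threshold and the other 9 arrays above it. Cyp2f4, the naphthalene-oxidising enzyme, was shared between liver (mean 10.06) and lung (9.83), and the organs overlapped.

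The skin led Cyp2b21 and Cyp2b12, members of the subfamily known for phenobarbital induction in the liver. Cyp2b21 was at 9.81, 10.72, 9.54 and 9.11 in male and 10.31, 8.27, 9.73, 9.03 and 9.91 in female skin. The epididymis followed with 7.40, 8.41 and 6.26, the only other organ above the threshold. Cyp2b12, an enzyme of sebaceous glands, reached 9.38, 10.63, 9.22 and 9.17 in male skin and 6.6, 2.27, 6.11, 5.99 and 2.39 in female skin. Male and female skin did not overlap for Cyp2b12, yet the difference missed the adjusted threshold in limma. Both exceeded the liver, Cyp2b21 by 7.44 and Cyp2b12 by 4.75.

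The adrenal led Cyp1b1, which hydroxylates estrogens and polycyclic hydrocarbons. Its 10 adrenal arrays lay between 14.07 and 14.22. The testes came second at 9.84, 9.45, 9.02 and 9.38, and the adrenal exceeded the liver by 10.02 (standard error 0.39, adjusted p = 4.7e-63 from limma). Cyp1a1, the enzyme most strongly induced through the aryl hydrocarbon receptor, was highest in the bladder, at 8.44, 8.90, 7.67 and 7.13 in males and 6.77, 10.38, 9.01 and 10.07 in females. Kidney (mean 6.90) came next and overlapped the bladder. In the lung single animals differed widely in Cyp1a1, from 2.04 to 8.28 in males and from 2.00 to 5.26 in females. Cyp2u1, a long-chain fatty acid hydroxylase, was highest in the aorta (8.35) and thymus (8.27), which overlapped. The epididymis had the highest mean of Cyp2j10 (7.10, 5.95 and 6.59), just below the threshold, which Cyp2j10 passed in male skin only. The mesenteric lymph node led Cyp4f17 at a mean of 6.68.

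In the gut the members divided by segment. Stomach led Cyp2s1, an extrahepatic P450, at 9.27, 9.36, 9.55, 9.62 and 9.78 in males and 9.38, 9.79, 9.96, 9.75 and 9.82 in females. Its mean fell to 7.90 in the duodenum and 5.54 in the jejunum. That step, 2.36 (adjusted p = 1.1e-20 in limma), was the 1 member higher in the duodenum than in the jejunum (0.702% of all probesets), while 5 were lower (1.23%). The 5 were Cyp4b1 (-2.72), Cyp2j3 (-2.23), Cyp4f5 (-1.54), Cyp3a18 (-1.53) and Cyp2d2 (-1.11). Jejunum exceeded ileum for 4 members and the reverse held for none (1.04% and 1.03% of all), namely Cyp2d2 (2.23), Cyp2j4 (1.52), Cyp4f5 (1.23) and Cyp4f1 (1.13). Ileum exceeded colon for 4 and the reverse held for none (2.66% and 2.47%), and without female 4 or without male 5 the 4 became 7. The largest of these steps was that of Cyp3a18, a testosterone hydroxylase, from 10.45 in the ileum to 3.35 in the colon (difference 7.10, standard error 0.30, adjusted p = 1.7e-57). Cyp3a9, by contrast, stayed at a mean of 11.32 in the colon, and at 12.51 to 13.10 on the 10 ileum arrays it had its highest level. Cyp2j4 peaked in the jejunum at 11.68, 12.24, 11.86 and 11.68 in males and 10.82, 11.45, 11.42, 11.08 and 10.98 in females.

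**Figure D2:**
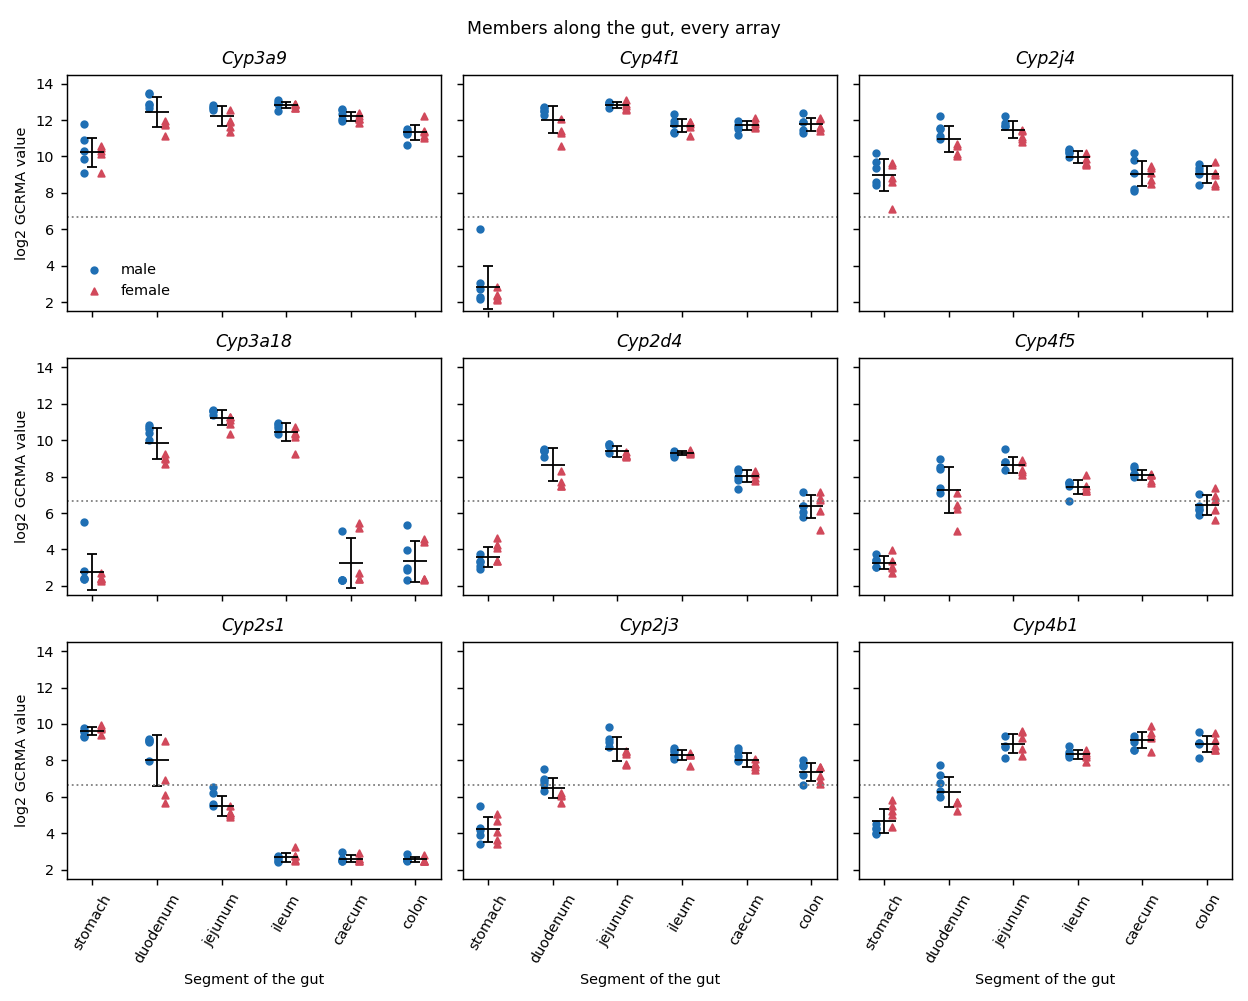
Every array of 9 members in 6 segments of the gut, with the log2 GCRMA value on the vertical axis, males as circles and females as triangles. Black bars give the mean and SD over all arrays of a segment and the dotted line the expression threshold. Cyp2s1 declines from stomach to ileum, and Cyp3a18 is present in duodenum, jejunum and ileum but lies below the threshold in stomach, caecum and colon.

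Stomach male 1, one of the arrays set apart above, carried enterocyte markers and had the highest stomach values of Cyp4f1 (6.03) and Cyp3a18 (5.52). Their part in the stomach means was not tested.

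Neighbouring genes often peaked in different organs. In the order of the current RefSeq gene table (GRCr8), 35 of the 42 genes lay in 8 runs of several members with at most 5 other protein-coding genes between neighbours. One run on chromosome 1 held Cyp2s1, Cyp2b3, Cyp2b21, Cyp2b12, Cyp2g1, Cyp2a3, Cyp2a1, Cyp2a2, Cyp2f4 and Cyp2t1. Its 9 expressed members had their highest means in 4 organs, the stomach, liver, skin and lung. Within it the lung-led Cyp2a3 stood next to the liver-only Cyp2a1 and Cyp2a2, and Cyp2b3, at 12.52 to 13.39 in the liver, stood next to the skin-led Cyp2b21. The run of Cyp2c6v1, Cyp2c7, Cyp2c12, Cyp2c13 and Cyp2c22 was uniform, since all 5 peaked in the liver and were expressed nowhere else. Such close relatives can share probe matches, and cross-hybridisation, for example of the Cyp2c13 probeset built for several transcripts, was not tested.

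Sex differences were tested within each somatic tissue by limma, and a probeset was called sexually dimorphically expressed (SDE) by the same 3 criteria, with the mean of either sex past the expression threshold. Of the 46 members 18, all of different genes, were SDE in at least 1 of the 26 somatic tissues, against 7.00% of all probesets. By the methods' t-test 16 were. The 18 made 24 pairs of a probeset and a tissue, in the liver, kidney, duodenum and adrenal. Males and females did not overlap in any pair, which the criteria themselves make likely, so it adds no support. In several tissues 5 members were SDE, Cyp1a1 and Cyp3a9 in opposite directions and Cyp2c11, Cyp2d4 and Cyp3a18 in the same one.

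In the liver 7 members were higher in males and 3 in females, where 0.419% and 0.406% of all probesets were called. Among the former were the steroid hydroxylases Cyp2c11, Cyp2c13, Cyp3a2 and Cyp2a2, for which most female values lay near background, so that the size of a difference depends on the background of the probes. Cyp2c11, the male-specific testosterone hydroxylase, was at 13.90, 13.84, 13.94 and 13.80 in male livers and at 7.14, 2.23, 2.98, 2.64 and 2.24 in female livers. Cyp2c13 was at 13.33, 13.66, 13.67 and 13.69 in males and 6.53, 2.46, 2.80, 3.77 and 2.28 in females. For Cyp3a2, another testosterone hydroxylase, males had 14.19, 14.03, 13.59 and 13.95 and females 7.69, 3.54, 3.43, 3.11 and 4.00. In all 3 genes the first female stood above the other females, near or above the threshold, and still far below every male. Without that animal's liver the differences were larger, at 11.35 for Cyp2c11, 10.76 for Cyp2c13 and 10.42 for Cyp3a2. With all arrays they were 10.42 (standard error 0.98, adjusted p = 0.00161), 10.02 (0.83, adjusted p = 0.000818) and 9.58 (0.90, adjusted p = 0.00156), all from limma.

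Cyp2a2 showed the same direction, with 12.87, 13.03, 12.74 and 12.83 in males and 4.23, 7.16, 2.54, 2.97 and 4.02 in females. Here it was the second female, not the first, that rose above the threshold, and the difference was 8.68 (adjusted p = 0.00195 from limma). Cyp4a8, kidney-led in both sexes, was at 8.20, 7.39, 6.85 and 7.61 in male livers and between 2.14 and 2.55 in the 5 female livers, which limma put at 5.26 with a standard error of 0.24 (adjusted p = 2.06e-05). Its second probeset gave 3.43 in the same direction at an adjusted p of 0.001225, with both means under the threshold. Cyp3a18 was at 13.34 to 13.46 in males and 8.85 to 10.84 in females, which in limma differed by 3.50 with a standard error of 0.42 (adjusted p = 0.0057). Cyp2d4 was at 8.82, 8.55, 8.97 and 8.65 in males and 7.52, 7.50, 7.51, 8.38 and 7.79 in females. It differed by 1.01 at adjusted p = 0.0432 in limma, and lost its call in 8 of 9 fits that left out an array, with an adjusted p of up to 0.104. Only without female 4 did it pass, at 0.00421. The second probeset of Cyp2d4, under the threshold in every organ, was also higher in males. In the fits over pairs of tissues described below it differed by 2.08 in the liver, 1.92 in the kidney and 1.41 in the duodenum.

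Cyp2c12, the female-predominant steroid sulphate hydroxylase, was at 14.36, 14.43, 14.35, 14.07 and 14.27 in female livers. Male livers had 11.21, 8.82, 8.88 and 10.68, well above the threshold and uneven between animals, and the difference was -4.40 (standard error 0.51, adjusted p = 0.00442 from limma). Cyp2a1, a testosterone hydroxylase, was at 9.75, 9.61, 9.55, 9.96 and 9.62 in females and 7.92, 8.08, 8.05 and 8.03 in males. Cyp3a9 was at 12.19, 12.04, 11.95, 12.43 and 12.56 in females and 10.77, 10.37, 10.64 and 10.59 in males. Their differences were -1.68 (adjusted p = 4.28e-05) and -1.64 (adjusted p = 0.00111) in limma, and both sexes stayed above the threshold.

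**Figure D3:**
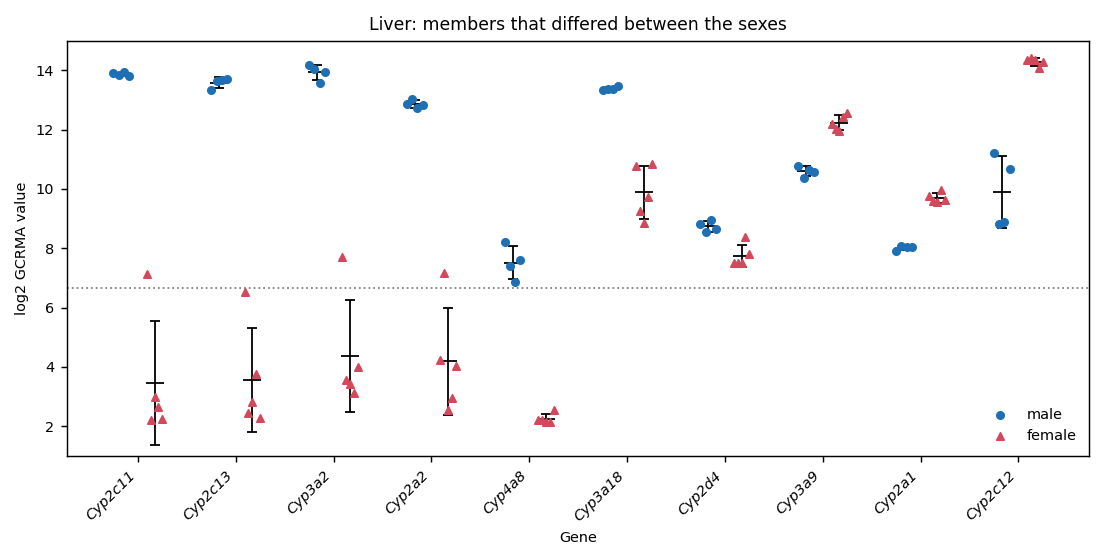
Log2 GCRMA values of the 10 members that differed between the sexes in the liver, every array shown, 4 males (circles) and 5 females (triangles), with mean and SD as black bars and the expression threshold as a dotted line. The first 7 genes lie higher in males and the last 3 in females, and single females stand out in Cyp2c11, Cyp2c13, Cyp3a2 and Cyp2a2.

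The 250 bases before the transcription start are shown for 6 of the genes, because 5 of them differed between the sexes in the liver and Cyp3a23-3a1, the close relative of Cyp3a2, did not. RefSeq promoter sequences (GRCr8) matched 35 of the 42 genes. Capitals mark matches, on either strand, to any of 4 motifs. They were the letters of a canonical promoter box, TATAAA, a core of sites for the liver factor HNF6, written ATCAAT, a site of the type bound by HNF4, CAAAGTCCA, and the palindrome of STAT5, the mediator of growth hormone signals, TTCNNNGAA. The motifs did not overlap each other in these windows.
Cyp2c11 (chr1:246174966-246175215, plus strand): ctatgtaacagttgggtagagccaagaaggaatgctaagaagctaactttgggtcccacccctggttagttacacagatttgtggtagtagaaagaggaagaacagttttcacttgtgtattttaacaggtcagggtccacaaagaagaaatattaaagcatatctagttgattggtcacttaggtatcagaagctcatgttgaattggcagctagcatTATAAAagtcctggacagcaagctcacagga
Cyp2c13 (chr1:248787189-248787438, minus strand): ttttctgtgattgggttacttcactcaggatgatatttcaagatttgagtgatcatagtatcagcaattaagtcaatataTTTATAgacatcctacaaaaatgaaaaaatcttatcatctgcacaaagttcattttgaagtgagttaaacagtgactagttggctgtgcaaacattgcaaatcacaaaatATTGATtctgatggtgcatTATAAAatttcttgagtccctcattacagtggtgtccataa
Cyp2c12 (chr1:248677035-248677284, minus strand): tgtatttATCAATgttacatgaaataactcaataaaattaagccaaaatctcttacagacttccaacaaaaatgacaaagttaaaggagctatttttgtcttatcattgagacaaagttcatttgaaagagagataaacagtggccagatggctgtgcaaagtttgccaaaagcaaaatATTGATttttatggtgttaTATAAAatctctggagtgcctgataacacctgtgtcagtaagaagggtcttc
Cyp3a2 (chr12:14343858-14344107, minus strand): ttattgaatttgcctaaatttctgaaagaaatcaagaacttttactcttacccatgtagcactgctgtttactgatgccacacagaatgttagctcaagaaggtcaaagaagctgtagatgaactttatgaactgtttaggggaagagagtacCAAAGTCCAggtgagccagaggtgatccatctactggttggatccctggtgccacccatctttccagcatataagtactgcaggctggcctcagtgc
Cyp3a23-3a1 (chr12:14398804-14399053, minus strand): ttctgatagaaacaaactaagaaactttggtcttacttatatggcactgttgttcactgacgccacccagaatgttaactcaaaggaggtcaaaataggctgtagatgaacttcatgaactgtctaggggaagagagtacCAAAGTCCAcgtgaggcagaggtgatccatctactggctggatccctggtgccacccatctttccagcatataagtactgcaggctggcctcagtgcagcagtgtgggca
Cyp4a8 (chr5:133970227-133970476, minus strand): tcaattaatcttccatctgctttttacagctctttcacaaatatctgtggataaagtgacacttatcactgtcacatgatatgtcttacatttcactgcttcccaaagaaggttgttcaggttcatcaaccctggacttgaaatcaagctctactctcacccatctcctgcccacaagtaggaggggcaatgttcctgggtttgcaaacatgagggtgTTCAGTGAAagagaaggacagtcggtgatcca

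The male-biased Cyp2c13 and the female-biased Cyp2c12 both held the TATA box letters and an HNF6 core on the other strand, the latter 60 to 55 bases before the start in Cyp2c13 and 71 to 66 in Cyp2c12. Over these promoters they were 60.7% identical, and Cyp2c11 was 49.5% identical to Cyp2c13. Cyp3a2 and Cyp3a23-3a1 were 79.2% identical and shared CAAAGTCCA, though one was male-specific and the other was high in both sexes. TTCNNNGAA was found in Cyp4a8, 32 to 24 bases before the start, but not in the window of Cyp2c11, Cyp2c12, Cyp2c13 or Cyp3a2. Of the 35 promoters 10 held TATAAA (28.6%), against 12.9% of all 33469 promoters of the same length. For ATCAAT the numbers were 5 (14.3%) and 7.10%, for TTCNNNGAA 3 (8.57%) and 7.67%, and for CAAAGTCCA 2 (5.71%) and 0.338%. The 2 promoters with CAAAGTCCA were those of the related Cyp3a2 and Cyp3a23-3a1, and several of the 10 with TATAAA were of related Cyp2c genes. Such promoters are not independent. A further motif, TNGCGTG of the aryl hydrocarbon receptor, was also searched and had no match in the sequences shown. It was found in 1 of the 35 promoters, that of Cyp1b1 (2.86%), against 4.09% of all. A match of letters is a description and no evidence of binding.

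The other 22 members expressed in the liver were not SDE there, and in 15 of them the sexes differed by less than 0.5 log2 units. Cyp3a23-3a1 had means of 13.51 in males and 13.24 in females, Cyp2c6v1 of 13.94 and 14.13, and Cyp1a2 of 12.74 and 13.18, all with overlap. Cyp2c22 (0.95), Cyp2c7 (-0.18), Cyp2d3 (0.58) and Cyp2e1 (-0.83) did not overlap between the sexes but missed the adjusted threshold. Cyp4a1, the fatty acid hydroxylase known as a target of PPAR alpha, passed it at 0.0311 with a difference of -0.95, under 2-fold. Of the hepatocyte markers Ahsg differed by -0.02, Apoa1 by 0.16, Fgb by 0.05 and Apoh by 0.03, and 0 of 5 were SDE by limma, the fifth being Alb, which lay at the top of the scale of the array. Of the other lists, Apoa4 (1.46) and Cela1 (1.99) were higher in male livers and Cpa1 in female livers (-7.77), and their part in the P450 differences was not tested. Liver female 5, which carried lung genes, had the highest female Cyp4b1 (8.80). Its Cyp4a8 (2.55), also the highest of the females, lay at background. Leaving out liver female 5 ended the call of Cyp2d4 in the liver (1.02, adjusted p = 0.0882 from limma) and left the other 9.

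A pair of adipose arrays carried the liver genes of their sex. Of 27 members above the threshold in the liver and below it in adipose, 16 were above it on adipose male 5 and 5 on adipose female 2, against 0 to 2 on the other 8 arrays. On male 5 Ahsg was at 11.36, Cyp2c11 at 9.30, Cyp2c13 at 9.79 and Cyp3a2 at 10.70, while Cyp2c12 was at 2.63. On female 2 Ahsg was at 8.87 and Cyp2c12 at 9.69, while Cyp2c11 was at 2.09, Cyp2c13 at 2.14 and Cyp3a2 at 2.67. Cyp2c7 was high on both, at 11.04 and 10.02. The other 8 arrays had Ahsg between 2.37 and 3.60 and Cyp2c7 between 2.26 and 4.34. Without the arrays that carried markers of other cell types, adipose expressed 6 members in place of 7, the one lost being Cyp2e1. No member was SDE in adipose (0 of 46 by limma, 4 at an unadjusted p under 0.05). Of all probesets 0.0548% were called higher in males there and 0.142% in females, so 0 of 46 was near their share.

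In the kidney 2 members were higher in males and 4 in females, against 1.05% and 0.796% of all probesets. Cyp2c11 was again male-specific, at 10.54, 6.52, 8.75, 8.21 and 7.34 in males and between 2.02 and 2.08 in all 5 females. Male kidneys spread over 4 log2 units and one of them lay just under the threshold, but none came near the females. The fitted difference of 6.23 (standard error 0.65, adjusted p = 0.000662 in limma) is a lower limit, since the females lay at background. Cyp2d4 was the other male-biased member, at 7.62, 7.37, 7.09, 7.34 and 6.79 in males and 6.02, 5.91, 5.79, 5.56 and 6.22 in females, a difference of 1.34.

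Cyp4b1 led the female-biased members of the kidney, at 10.86, 10.82, 12.03, 11.61 and 10.27 in females and 6.58, 7.41, 7.17, 7.37 and 7.68 in males. It differed by -3.88 (standard error 0.34, adjusted p = 0.00031 from limma), while in the lung, where it was highest, the sexes overlapped. Cyp1a1 was at 9.39, 8.75, 8.32, 7.86 and 9.19 in female kidneys and 5.55, 5.54, 3.93, 5.31 and 5.21 in male kidneys, below the threshold in every male. That difference was -3.59 (standard error 0.39, adjusted p = 0.00082). Cyp2e1 ranged from 11.80 to 12.60 in females and 10.18 to 11.41 in males (difference -1.49, adjusted p = 0.00903). Cyp4a1 ranged from 9.91 to 11.08 in females and 8.35 to 9.63 in males (-1.46, adjusted p = 0.0116). Markers of the proximal tubule, where much of renal P450 lies, summed to 13.54 to 13.73 in males and 13.54 to 14.05 in females, and 0 of 4 were SDE by limma. Of the secretory gut list Tff3 alone was SDE in the kidney, higher in males by 3.06, and the acinar list lay at 10.87 to 11.05 in males and 10.30 to 10.77 in females with none SDE. Their part in the result was not tested. All 6 kidney calls held in each of the 10 fits that left out an array.

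In the duodenum 7 members were higher in males and none in females, against 2.27% and 0.503% of all probesets. By limma 15 members had an unadjusted p under 0.05, all of them higher in males. The share of all probesets at that limit is not given here, and their calls, too, were mostly higher in males. The methods' t-test called 5 members, again with none higher in females. Cyp1a1 was at 7.74, 8.84, 7.89, 10.43 and 6.40 in males and 4.34, 4.80, 4.40 and 4.65 in females, with one male just under the threshold. The difference, 3.71 (standard error 0.72, adjusted p = 0.0189 from limma), missed the threshold at 0.0514 without duodenum female 2. Cyp2d4 was at 9.46, 9.40, 9.43, 9.53 and 9.07 in males and 7.50, 7.50, 8.31 and 7.72 in females. Cyp3a18 was at 10.38, 10.62, 10.83, 10.72 and 10.01 in males and 9.03, 8.72, 9.24 and 8.96 in females. In limma these genes differed by 1.62 (adjusted p = 0.00357) and 1.53 (adjusted p = 0.00394).

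Cyp3a9 reached 12.81, 12.90, 13.42, 13.47 and 12.67 in male duodenum and 11.96, 11.73, 11.79 and 11.11 in female duodenum, a gap of 1.41 (adjusted p = 0.0113 from limma). Cyp4f6, of the leukotriene-hydroxylating subfamily, was the most even, at 9.88, 9.64, 9.71, 9.67 and 9.63 in males and 8.52, 8.34, 8.59 and 8.43 in females. Its difference of 1.23 had a standard error of 0.07 and an adjusted p of 0.000465 (limma). Cyp4f1 was at 12.72, 12.50, 12.68, 12.51 and 12.29 in males and 10.59, 11.30, 12.06 and 11.43 in females. Cyp2j4 was at 11.14, 11.55, 12.22, 11.51 and 10.96 in males and 10.14, 10.56, 10.67 and 10.01 in females. These last 2 genes were the least secure, since Cyp4f1 (1.20) lost its call in 6 and Cyp2j4 (1.13) in 7 of 9 fits that left out an array, with adjusted p up to 0.078 and 0.0928. Leaving out duodenum female 2 alone reduced the 7 calls to 4.

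Markers of several other cell types moved in the same direction in the duodenum, but not all did. Lower in males without overlap were Myh11 of smooth muscle (-0.89), the neuronal Snap25 (-0.77) and Krt10 of keratinocytes (-0.49). None of these was SDE, and Krt10 lay under the threshold. The enterocyte list summed to 15.03 to 16.04 in males and 13.91 to 14.85 in females, and 2 of its 5 genes, Apoa4 (2.93) and Alpi (2.03), were SDE. The hepatocyte list, whose Apoa1 the gut also expresses, summed to 14.28 to 14.62 and 12.30 to 13.47, with Apoa1 SDE (1.52). Goblet and Paneth markers summed to 14.20 to 14.46 in males and 13.18 to 13.89 in females, with 0 of 3 SDE and Defa5 near background at 2.61 and 2.59. Leukocyte markers summed to 12.24 to 13.22 and 11.31 to 11.89, with Cd74 SDE (1.40), while pancreatic acinar and smooth muscle lists overlapped between the sexes. The part of these shifts in the P450 differences was not tested.

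**Figure D4:**
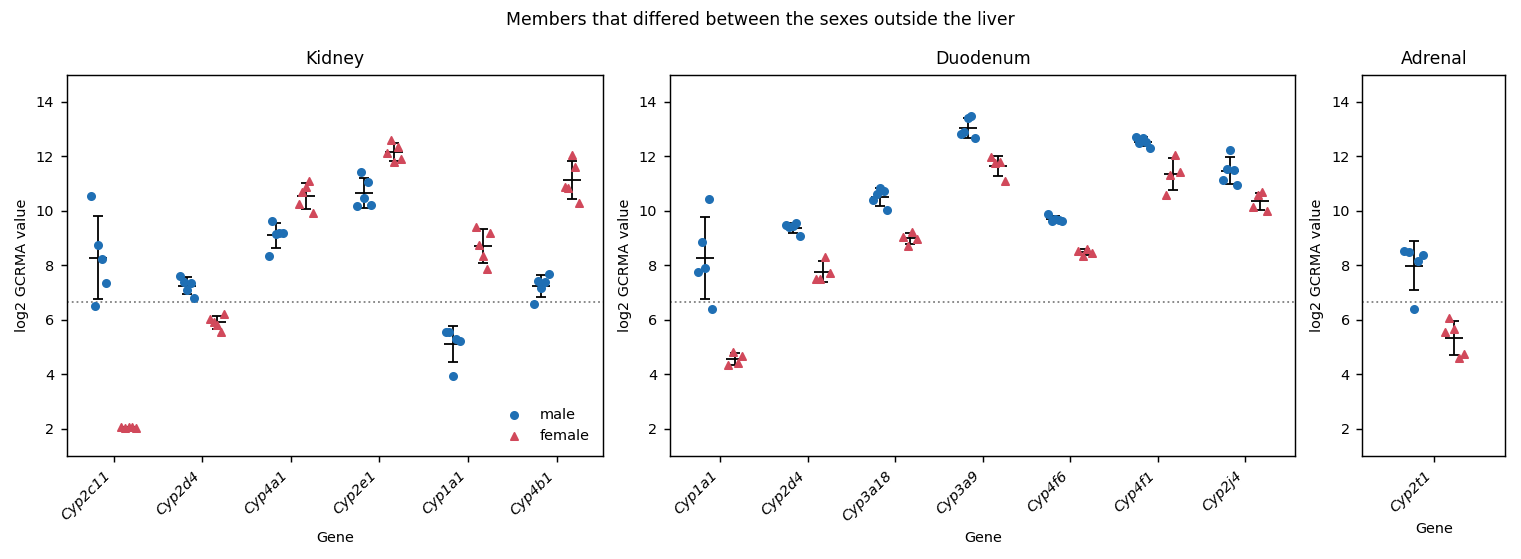
Log2 GCRMA values of the members that differed between the sexes in the kidney (5 males, 5 females), duodenum (5 males, 4 females) and adrenal (5 and 5), every array shown, males as circles and females as triangles, mean and SD as black bars, expression threshold dotted. Kidney genes run from male-biased Cyp2c11 to female-biased Cyp4b1, and all duodenal genes and adrenal Cyp2t1 lie higher in males.

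In the adrenal 1 member was called, against 0.602% of all probesets for males. Cyp2t1 was at 8.54, 8.47, 6.38, 8.17 and 8.39 in males and 5.56, 6.08, 5.66, 4.58 and 4.75 in females. One male fell below the threshold but above every female, and the difference was 2.66 (standard error 0.47, adjusted p = 0.0149 from limma). Adrenal cortex markers did not separate, at 16.16 to 16.22 in males and 16.13 to 16.24 in females, with 0 of 3 SDE. In the other 22 somatic tissues limma called no member, and unadjusted p-values under 0.05 numbered 0 to 9 of 46. In the pituitary 0.606% of all probesets were called higher in males and 0.567% in females. Adipose came next, at 0.0548% and 0.142%. In each of these tissues 0 of 46 was thus near the share of all probesets. In the aorta, heart and bone marrow, which held the 4 arrays at odds with their label, limma called 0 of all 31042 probesets, so the lack of called members there says nothing about the P450 genes. Without the 4 arrays it called 7, 1 and 4 probesets in these tissues and 0 members. The highest counts of unadjusted p-values under 0.05 were in the jejunum and the skin. All 9 in the jejunum were higher in males, but the share of all probesets at that limit is not given here.

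Whether a sex difference itself differed between tissues was tested by an interaction term in limma, in which each animal was a random block. A member passed at an adjusted p below 0.05 alone, with no limit on fold or level, so some that passed lay under the threshold in both tissues, such as the second probeset of Cyp4a8 in the liver and duodenum. Between liver and kidney 14 members passed (4.82% of all probesets), between liver and duodenum 19 (10.7%), between duodenum and kidney 11 (16.9%) and between duodenum and jejunum 2 (0.673%). The last count was 0 to 3 with single animals left out and 0 at an adjusted p under 0.01. These comparisons share tissues, so they are given side by side. Cyp1a1 changed direction, with 3.71 in the duodenum and -3.59 in the kidney, which differed by 7.30 (standard error 0.84, adjusted p = 3.4e-05). Cyp3a9 was lower in males by 1.64 in the liver and higher by 1.41 in the duodenum, which differed by -3.05 (standard error 0.28, adjusted p = 7.6e-06). Cyp4a1 likewise ran from -1.46 in the kidney and -0.95 in the liver to 2.14 in the duodenum, although the duodenal means lay under the threshold. Cyp4b1 differed between duodenum and kidney by 5.08 (standard error 0.51, adjusted p = 1.2e-05). Cyp2c11, male-specific in liver and kidney, was near background in both sexes of the duodenum, and the liver and kidney did not pass for it. Cyp2d4 and Cyp4f6 were the members whose male bias in the duodenum exceeded that in the jejunum, by 1.14 and 0.66.

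**Figure D5:**
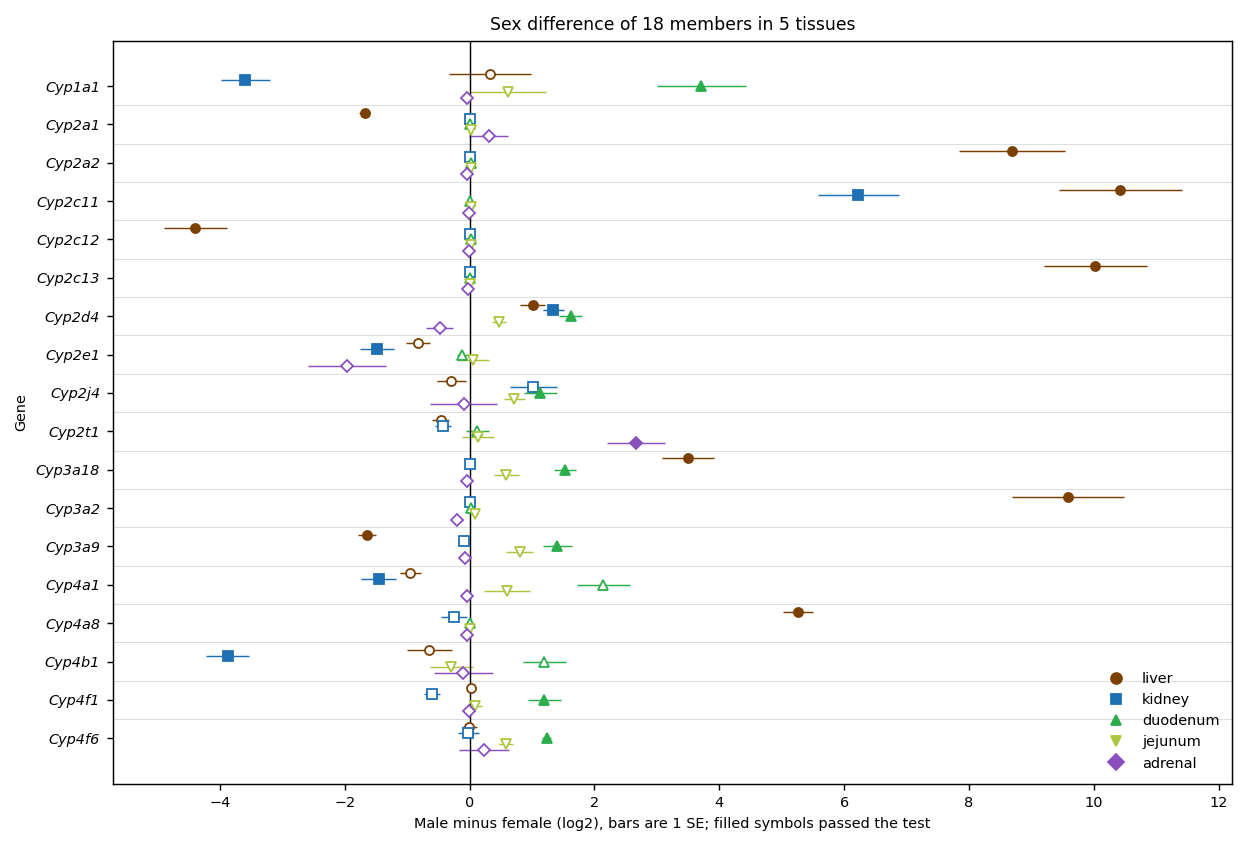
Male minus female difference (log2, with 1 standard error) of the 18 members that were SDE in at least 1 tissue, in liver, kidney, duodenum, jejunum and adrenal. Filled symbols passed the test for sexually dimorphic expression and open ones did not, and Cyp1a1 and Cyp3a9 have filled symbols on both sides of zero.

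Genes that serve or control the P450 enzymes were read from lists. Each gene, like each cell type marker, was read from 1 probeset, that with the highest mean over all arrays. Of 8 genes, those of electron transfer and haem turnover and the epoxide hydrolase Ephx1, none was SDE in the liver or kidney, where by limma the adjusted p of Por was 0.54 and 0.91. In the duodenum Por (10.46 in males, 9.05 in females) and the haem-degrading Hmox1 (7.05 and 4.35) were higher in males, and the list's median was 0.66 against 0.01 over all probesets. Of 18 measured regulators, Bcl6, a repressor tied to male growth hormone signalling, was higher in male livers by 3.25. Cux2, a female-specific repressor, differed by -4.58, at 7.44 in female and 2.85 in male livers. The paper names HNF4A as a key SDE gene of its liver network. Here the 1 probeset read for Hnf4a differed by -0.14 in the liver (adjusted p = 0.72 from limma), and other probesets of the gene were not read. The bile acid receptor Nr1h4 was higher in the male duodenum by 1.08, and no regulator was SDE in the kidney. The median difference of the regulators was -0.25 in the liver, 0.01 in the kidney and 0.51 in the duodenum. Of the 18 only 13 were expressed in the liver, 6 in the kidney and 6 in the duodenum. The kidney and duodenal medians thus rest mostly on probesets under the threshold, which could not be called. The aryl hydrocarbon receptor Ahr was at 4.69 in female and 2.78 in male kidneys without overlap, below the threshold in both. Of its other targets only Tiparp, of 4 measured, was SDE in the duodenum (1.20), and none in the kidney. Their median was 0.04 in the duodenum, and only 2 of the 4 were expressed in either organ. Of 7 targets of PPAR alpha 3, Pdk4 (1.71), Fabp1 (1.05) and Vnn1 (2.15), were higher in the male duodenum, where 2.27% of all probesets were, and the list's median was 1.05 against 0.01. None was SDE in the liver or kidney, with medians of -0.14 and -0.07. Pdk4 was at 10.55 in male and 11.46 in female livers without overlap, a difference of -0.91 that missed the threshold in limma (adjusted p = 0.0511).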

How the data were processed

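RNA of 31 organs was hybridised to RAE230_2 arrays. The authors deposited log2 values after GCRMA, which corrects background by probe sequence, quantile normalises and summarises each probeset; its version is not given in the sources used here. Samples with an RNA integrity number under 7 had been rejected, and which arrays were normalised together was not given. All columns were mapped to groups by the labels (unused columns 0). Of the 31042 probesets, 20826 had 1 gene symbol, 436 several and 9780 none. The members and gene lists were chosen with earlier results of these data known.

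Sex differences were fitted per tissue with limma 3.58.1 (R 4.3.3), organ differences in 1 fit over all groups, and differences of sex differences between tissues with the animal as a random block (statmod 1.5.0), and p-values were adjusted over all probesets by Benjamini-Hochberg. Organs of 1 animal are paired, and a fit with the animal as a block (consensus correlation 0.01065, estimated on every 10th probeset) was an alternative for organ comparisons. In that fit the ovary arrays were coded as animals of their own, since their animal numbers are others in the study's supplement. Same-numbered males and females are different animals. Simulated data were used to test the sex fit in the liver, kidney and duodenum, kidney minus liver, and the interaction of liver and kidney. The other fits were not tested in that way. Any member could be named; array values were given for members with a sex difference and for up to 3 members with the highest level in each leading organ, and genes that are no members came from the lists. Alternatives were the methods' t-test, quantile normalisation, other thresholds, a replicate block and each array left out, where interaction and quantile fits kept the full correlation. Replicates are different animals. Arrays give no read depth, so the number of arrays limits the precision.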

Additional observations from a re-analysis of the deposited data

Results flagged for a closer look

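Of 86 combinations of a member and a group of 4 to 10 arrays, 9 (10.5%) had 1 array far from the others, by a limit that chance passes in about 1 in 20 groups. In the liver these were Cyp3a2 at 7.69 and Cyp2c11 at 7.14 on female 1, Cyp4a8 at 2.55, a background level, on female 5 and Cyp2c13 at 13.33 on male 1. In the kidney they were Cyp2c23 at 13.35 on male 4 and Cyp1a1 at 3.93 on male 3. The others were Cyp2t1 at 6.38 on adrenal male 3, Cyp2d4 at 9.07 on duodenum male 5 and Cyp2b12 at 10.63 on skin male 3.

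The sex difference (male minus female, log2) itself differed between tissues, by limma, for the following members. Liver minus kidney was positive for Cyp2c13 (10.01), Cyp3a2 (9.58), Cyp2a2 (8.67), both probesets of Cyp4a8 (5.51 and 3.84), Cyp1a1 (3.92), Cyp3a18 (3.49), Cyp4b1 (3.23), Cyp2d3 (0.69) and Cyp4f1 (0.62). It was negative for Cyp2c12 (-4.40), Cyp2a1 (-1.69), Cyp3a9 (-1.56) and Cyp2d2 (-0.61). Duodenum minus kidney was positive for Cyp1a1 (7.30), Cyp4b1 (5.08), Cyp4a1 (3.61), Cyp2s1 (2.90), Cyp4f5 (1.83), Cyp4f1 (1.80), Cyp3a18 (1.52), Cyp3a9 (1.49), Cyp2e1 (1.37) and Cyp4f6 (1.25), and negative for Cyp2c11 (-6.23).

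Liver minus duodenum was positive for Cyp2c11 (10.41), Cyp2c13 (10.02), Cyp3a2 (9.54), Cyp2a2 (8.64), the probesets of Cyp4a8 (5.26 and 3.42), Cyp3a18 (1.97), Cyp2u1 (1.73) and Cyp2d3 (0.49). It was negative for Cyp2c12 (-4.41), Cyp1a1 (-3.39), Cyp4a1 (-3.08), Cyp3a9 (-3.05), Cyp4b1 (-1.86), Cyp2a1 (-1.68), Cyp2j4 (-1.41), Cyp4f6 (-1.25), Cyp4f1 (-1.18) and Cyp2e1 (-0.72). Duodenum minus jejunum was positive for Cyp2d4 (1.14) and Cyp4f6 (0.66).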

How the results depend on the processing

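The 20 of 24 sex differences that held with any array left out changed direction under no alternative, and neither did the other 4. At an adjusted p under 0.01 the duodenal count fell from 7 to 3, the liver and duodenum difference count from 19 to 11, and that of duodenum and jejunum from 2 to 0, which was 1 under quantile normalisation. With the replicate block the counts were 4 in the liver (10 without it), 2 in the duodenum and 6 in the kidney. That fit kept only numbers present in both sexes, so it dropped liver female 2 and duodenum male 4 but no kidney array. It also fitted a term for each number, which left fewer degrees of freedom. The part of these losses in the lower counts was not tested. Same-numbered males and females are different animals, and their deviations correlated at -0.11 to 0.22, in the liver at 0.05 to 0.13. Whether the number also stands for a shared step of processing was not tested. Jejunum minus ileum gave 8 members with no expression threshold (4 with it), and ileum minus colon 8 at 1.5-fold (4 at 2-fold). With arrays left out in turn, the calls numbered 16 to 18 in any tissue, 4 to 8 in the duodenum, 9 to 10 in the liver and 6 in the kidney. Ileum minus colon gave 4 to 7, with 7 without female 4 or male 5. The interaction counts ranged over 0 to 3 (duodenum and jejunum), 13 to 20 (liver and duodenum), 9 to 11 (duodenum and kidney) and 11 to 15 (liver and kidney). The causes were not tested. Of 38 losses of single calls, 22 came with an array left out, 12 with the block, 3 with the methods' t-test and 1 with quantile normalisation. The animal as a block in organ comparisons changed no count by over 1.5 times. Leaving out the 32 arrays that carry markers of other cell types was chosen after seeing the data. Signals near 2 to 3 are background, so low levels have no order.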
